A study of Mus musculus with 9 samples.

Results

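The snoRNA host noncoding transcripts described here are 9 genes, 2410006H16Rik, Snhg1, Snhg3, Snhg5, Snhg6, Snhg8, Snhg12, Gas5 and Zfas1, among the 20189 genes of the count table. They were chosen by name, in part because 2410006H16Rik and Snhg1 respond strongly in these data. The values of these 2 genes are therefore a description and carry no test, and tests are given for the other 7 genes. All 9 had counts and were among the 20143 genes tested.

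snoRNAs are short RNAs of the nucleolus that guide chemical modification of ribosomal RNA or take part in its processing. In mammals most of them are cut out of the introns of a longer host transcript, which is then spliced, capped and polyadenylated like an mRNA. Several noncoding hosts, Gas5 among them, begin with a pyrimidine tract like that of ribosomal protein mRNAs (a 5′ TOP sequence), and their spliced RNAs are known targets of nonsense-mediated decay (NMD), which depends on translation. Gas5 took its name from its accumulation in growth-arrested cells.

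Poly(A) RNA was sequenced from wild-type E14 cells, a line of mouse embryonic stem (ES) cells grown with leukemia inhibitory factor. Cells were starved for 3 h in medium without Thr (Thr-starved) or without Cys (Cys-starved), and the controls (unstarved) had all AAs, with 3 libraries per group. The study's methods for RNA sequencing do not say whether the medium of the controls was changed as well. All groups had the wild-type genotype and one line, and the description of the medium in the labels names only Arg and Leu as the AAs left out, so that the removal of Thr or Cys is known from the sample titles and the study's methods. No label says whether the replicates were separate cultures, and p-values therefore measure the spread between these libraries. The comparison of each starved group with the unstarved group asked how the transcriptome of ES cells responded to loss of that AA.

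Library totals ran from 48763102 to 74962733 counts, and the 9 hosts together held between 0.0244% and 0.0894% of a library. Levels are given as CPM, the counts of a library scaled to a common total with TMM factors, and changes as log2 fold changes from edgeR with their SE. The 8 ES cell markers of the label check were all in the table, and their summed level was between 3470 and 3680 CPM in every library. The sum hides changes in both directions. At an edgeR adjusted p of 0.05 or less, 4 were higher and 4 lower with Thr starvation (31.1% and 31.9% of all genes). With Cys starvation 3 were higher and 5 lower (17.5% and 18.8% of all genes). The largest changes with Thr starvation were -1.69 for Utf1 and 0.85 for Klf4 on the log2 scale. The summed level of the 4 fibroblast markers in the table was between 9.48 and 14.9 CPM, and that of 8 differentiation markers between 25.1 and 32.7 CPM. In these bulk samples, fewer cells of one kind and less RNA per cell cannot be told apart.

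The stretch around each transcription start is shown first because a pyrimidine tract there is the feature for which these hosts are known. Promoter entries from RefSeq (GRCm38.p6) were found for 8 of the 9 genes, with 2 for Gas5. Each line runs from 30 bases before the annotated start to 30 bases from it, 5′ to 3′ on the strand of the gene. Capitals mark the longest unbroken run of C and T that reaches into the stretch from 5 bases before the start to the base at position 10.
2410006H16Rik, chr11:62602847-62602906, plus strand: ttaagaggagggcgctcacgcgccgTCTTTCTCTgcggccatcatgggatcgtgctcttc
Snhg1, chr19:8723457-8723516, plus strand: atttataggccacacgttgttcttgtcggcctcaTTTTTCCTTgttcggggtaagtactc
Snhg12, chr4:132308648-132308707, plus strand: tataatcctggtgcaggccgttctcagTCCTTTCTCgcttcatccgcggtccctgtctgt
Gas5, chr1:161035136-161035195, plus strand: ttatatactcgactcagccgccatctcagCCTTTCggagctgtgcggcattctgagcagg
Snhg8, chr3:123508307-123508366, minus strand: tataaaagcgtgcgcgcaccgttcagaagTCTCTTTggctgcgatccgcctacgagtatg
Snhg5, chr9:88522868-88522927, minus strand: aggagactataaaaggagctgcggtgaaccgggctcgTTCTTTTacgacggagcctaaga

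The run was 9 bases long in 2410006H16Rik, Snhg1 and Snhg12, 7 bases in Snhg8 and Snhg5, and 6 bases at this start of Gas5. In Snhg1 and Snhg5 it began only after the annotated start, at positions 5 and 8. In the other entries shown it began before that start. A run of at least 5 bases was present in 7 of the 9 promoter entries, against 38.0% of the 32851 mouse promoters and 59.0% of 78 ribosomal protein promoters measured in the same way. The runs of Zfas1, of the other Gas5 start and of Snhg3 had 4, 3 and 5 bases. The letters TATAA, the core of a TATA box, stood between 45 and 16 bases before the start on the gene's strand in Snhg5, Snhg8 and Snhg12, against 3.89% of all promoters. The letters TGATGNAA, a form bound by C/EBP-ATF factors, and CACGTG, the E-box, were searched on both strands over the 300 bases of each entry. No entry of the hosts held either, while 3.97% and 7.15% of all promoters did.

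GENCODE annotates 35 snoRNA gene models inside the 9 hosts on the same strand, from 1 each in Snhg6 and Snhg8 to 10 in Gas5. The map of exons and snoRNA genes shows them between the exons of the transcript with the most exons. Most of them overlap an exon of another annotated transcript of their host. The snoRNAs of the host with the largest increase (2410006H16Rik) and of the host that fell (Snhg5) follow, from the GENCODE M21 transcripts. Capitals mark the C box letters near the 5′ end and the D box letters near the 3′ end, the paired motifs that define box C/D snoRNAs.
Snord49b, chr11:62603079-62603150, plus strand: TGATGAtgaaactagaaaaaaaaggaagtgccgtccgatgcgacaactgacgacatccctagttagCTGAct
Snord49a, chr11:62603450-62603521, plus strand: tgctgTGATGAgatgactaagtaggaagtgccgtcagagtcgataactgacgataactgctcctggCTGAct
Snord65, chr11:62604515-62604586, plus strand: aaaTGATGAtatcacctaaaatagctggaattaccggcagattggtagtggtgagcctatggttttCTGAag
Snord50a, chr9:88521529-88521600, minus strand: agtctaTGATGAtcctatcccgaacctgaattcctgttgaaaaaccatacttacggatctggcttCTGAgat
Snord50b, chr9:88521797-88521868, minus strand: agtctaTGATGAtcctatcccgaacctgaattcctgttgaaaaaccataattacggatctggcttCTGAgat

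Each of these 5 snoRNAs is 72 bases long. Snord50a and Snord50b differ at 1 base, C50A, counted from 1 at the 5′ end with the base of Snord50a first, so that they are near-identical copies within one host.

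**Figure D1:**
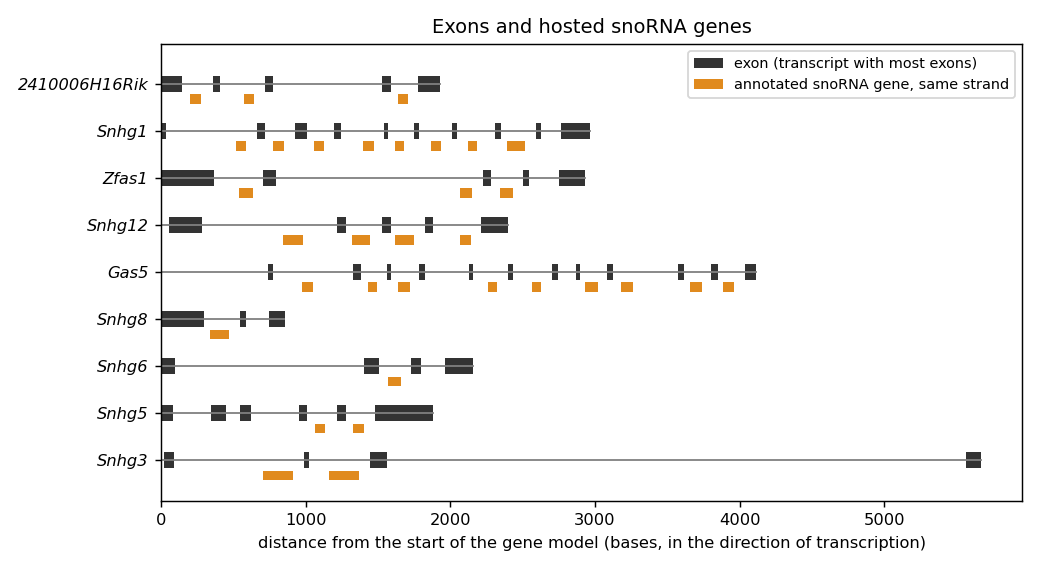
Map of the 9 host genes, with distance in bases from the start of the gene model in the direction of transcription on the horizontal axis. Dark boxes are exons of the transcript with the most exons and orange boxes are annotated snoRNA genes, which number 35 and lie between the dark boxes.

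Thr starvation raised 5 of the 7 tested hosts and lowered Snhg5. Of the 7 hosts not chosen for their response, Zfas1, Snhg12, Gas5, Snhg8 and Snhg6 were called higher by edgeR at an adjusted p of 0.05 or less and Snhg5 was called lower. Over all genes tested, 31.1% were called higher and 31.9% lower in this comparison. Snhg3 was not called. An increase of at least 1 on the log2 scale was called for Zfas1, Snhg12 and Gas5 (5.79% of all genes) and a decrease of that size for Snhg5 (7.46%). For each of the 7, no Thr-starved library overlapped the unstarved range in CPM, as for 66.5% of all genes. For Snhg3 this rests on the scaling to depth, since unstarved library 3 and Thr-starved library 3 both held 6 counts. Without the 2 chosen hosts, the summed level of the other 7 was 198.2 ± 17.5 CPM in unstarved and 431 ± 12.3 CPM in Thr-starved cells (SD, n = 3), and their median log2 fold change was 0.33 beside -0.02 over all genes tested.

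2410006H16Rik (ENSMUSG00000086841, chr11:62602877-62604807, 5 exons) is a noncoding gene with Snord49b, Snord49a and Snord65 in its introns. Its level was 27.1, 23.8 and 26.4 CPM in the unstarved libraries, 39.8, 40.9 and 39.0 CPM in the Cys-starved and 225, 222 and 224 CPM in the Thr-starved libraries. The groups stood apart in the order unstarved, Cys-starved and Thr-starved, with no overlap. These levels give a log2 fold change of 3.12 (SE 0.037, 8.70-fold) with Thr starvation and of 0.63 (SE 0.039, 1.55-fold) with Cys starvation. Among the 11410 genes that averaged 5 CPM or more, the first of these was the 3rd largest increase and the other the 117th.

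Snhg1 (ENSMUSG00000108414, chr19:8723475-8726443) has 8 annotated snoRNA genes, of which only Snord22 carries a snoRNA family name. The unstarved libraries had 53.5, 46.0 and 52.0 CPM, the Cys-starved 59.7, 63.0 and 63.3 CPM and the Thr-starved 249, 243 and 246 CPM. The order of the groups was that of 2410006H16Rik, again with no overlap. The log2 fold change was 2.28 (SE 0.040, 4.87-fold) in Thr-starved and 0.30 (SE 0.041, 1.23-fold) in Cys-starved cells. Snhg1 had the 10th largest increase with Thr starvation among the genes above 5 CPM.

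Zfas1 (ENSMUSG00000074578, chr2:167062934-167065862) is the antisense neighbour of Znfx1 and the host of Snord12. It had 26.6, 22.8 and 24.5 CPM in unstarved, 29.8, 31.7 and 33.3 CPM in Cys-starved and 114, 110 and 120 CPM in Thr-starved libraries. Both starved groups lay above the unstarved one. Thr starvation raised it 4.67-fold (log2 fold change 2.22, SE 0.048, edgeR adjusted p = 2.01e-20), the 13th largest increase above 5 CPM. Cys starvation raised it 1.28-fold (log2 fold change 0.36, SE 0.051, edgeR adjusted p = 7.14e-06).

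Snhg12 (ENSMUSG00000086290, chr4:132308623-132311024) carries Snora16a, Snora44, Snora61 and Snord99. Its level was 26.0, 21.2 and 25.9 CPM in unstarved, 24.1, 22.5 and 26.1 CPM in Cys-starved and 78.2, 80.2 and 81.0 CPM in Thr-starved libraries. The Cys-starved libraries overlapped the unstarved ones, and the Thr-starved libraries stood above both. The increase with Thr starvation was 3.28-fold (log2 fold change 1.71, SE 0.058, edgeR adjusted p = 4.86e-17). With Cys starvation the log2 fold change was -0.01, with a 95% interval from -0.14 to 0.12 (edgeR adjusted p = 0.953).

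Gas5 (ENSMUSG00000053332, chr1:161034422-161038539), whose annotated transcripts reach 12 exons, had 85.5, 73.8 and 86.5 CPM in unstarved and 77.4, 80.2 and 79.6 CPM in Cys-starved libraries. The Thr-starved libraries had 185, 176 and 188 CPM. As for Snhg12, the Thr-starved libraries were alone in standing apart. Gas5 rose 2.24-fold with Thr starvation (log2 fold change 1.16, SE 0.042, edgeR adjusted p = 1.58e-16). Its change with Cys starvation was -0.05 on the log2 scale, with a 95% interval from -0.14 to 0.04 (edgeR adjusted p = 0.402). Without the unstarved library 2 this change was -0.12 with an edgeR adjusted p of 0.0063, so that this library decides the call (0.0063 to 0.896 over the alternatives).

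Snhg8 and Snhg6 moved little. Snhg8 (ENSMUSG00000104960, chr3:123507552-123508404), the host of Snora24, had 17.7, 16.03 and 18.0 CPM in unstarved, 15.6, 15.7 and 14.9 CPM in Cys-starved and 20.7, 21.2 and 23.0 CPM in Thr-starved libraries. Snhg6 (ENSMUSG00000098234, chr1:9941959-9944118), the host of Snord87, had 14.1, 12.3 and 13.4 CPM in unstarved, 10.1, 10.8 and 11.0 CPM in Cys-starved and 15.5, 14.8 and 15.8 CPM in Thr-starved libraries. In both genes the unstarved libraries lay between the lower Cys-starved and the higher Thr-starved libraries. The log2 fold change of Snhg8 was 0.33 (SE 0.056, edgeR adjusted p = 1.81e-05) with Thr and -0.16 (SE 0.057, edgeR adjusted p = 0.0318) with Cys starvation. That of Snhg6 was 0.22 (SE 0.062, edgeR adjusted p = 0.00427) with Thr and -0.32 (SE 0.064, edgeR adjusted p = 0.000353) with Cys starvation. The lower call of Snhg8 in Cys-starved cells was lost without unstarved library 1 or 3 or without Cys-starved library 1 or 3, with edgeR adjusted p-values of 0.104, 0.132, 0.0537 and 0.118 (0.00752 to 0.132 over the alternatives). Snhg6 shares 127 exonic bases with Mcmdc2 on the opposite strand, a gene with less than 1 CPM in every library.

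Snhg5 (ENSMUSG00000097195, chr9:88521050-88522929), the host of Snord50a and Snord50b, went the other way. It had 39.6, 31.8 and 38.5 CPM in unstarved, 39.4, 40.8 and 38.8 CPM in Cys-starved and 15.7, 16.3 and 15.5 CPM in Thr-starved libraries. The Thr-starved libraries lay below all others, and the Cys-starved libraries overlapped the unstarved ones. Its level in Thr-starved cells was 0.432 of the unstarved level (log2 fold change -1.21, SE 0.063, edgeR adjusted p = 9.94e-14), the 311th largest decrease among the 11410 genes above 5 CPM. With Cys starvation the log2 fold change was 0.12, with a 95% interval from -0.0027 to 0.23 (edgeR adjusted p = 0.124), and without unstarved library 1 it was 0.17 (edgeR adjusted p = 0.0306, with 0.0306 to 0.764 over the alternatives).

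Snhg3 (ENSMUSG00000085241, chr4:132348014-132353686), annotated with Snora73a and Snora73b, was close to the limit of counting. The unstarved libraries held 10, 13 and 6 counts, the Cys-starved 12, 3 and 9 and the Thr-starved 3, 4 and 6. Its log2 fold change of -1.09 with Thr starvation had a 95% interval from -2.36 to 0.17 (edgeR adjusted p = 0.125), and a difference was not detectable at these counts. The gene shares 135 exonic bases with Rcc1 on the same strand and 705 with Gm17300 on the opposite strand, and reads that fall there could have been left uncounted or assigned to either gene.

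**Figure D2:**
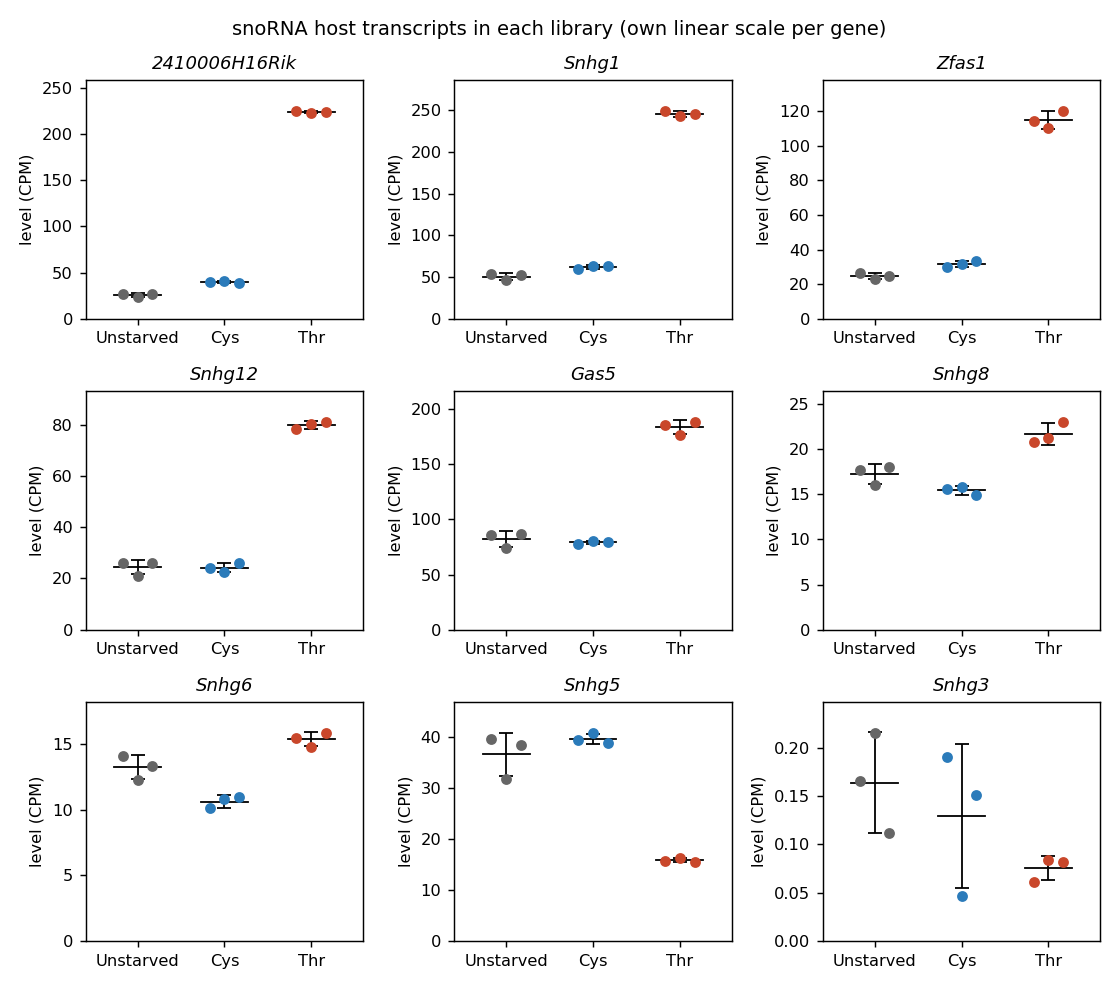
Level of each host (CPM, linear axis from 0, own scale per gene) in the 3 libraries of each group, with a black line at the mean and bars of 1 SD. In 5 panels (2410006H16Rik, Snhg1, Zfas1, Snhg12 and Gas5) the Thr-starved points stand far above the rest, and in the Snhg5 panel they stand below, at 15.7, 16.3 and 15.5 CPM.

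Cys starvation changed these transcripts less. Among the 7 tested hosts, Zfas1 was called higher, Snhg8 and Snhg6 lower, and Snhg5, Snhg12, Gas5 and Snhg3 were not called by edgeR, where 17.5% of all genes were called higher and 18.8% lower. The libraries of the 2 groups did not overlap for Zfas1, Snhg8 and Snhg6, as for 46.4% of all genes. The summed level of the 7 hosts was 201 ± 3.79 CPM in Cys-starved cells (SD, n = 3), and their median log2 fold change was -0.05. The Cys-starved sums ran from 197 to 204 CPM, within the unstarved range of 178 to 210 CPM. Only unstarved library 2 lay below them, and the other unstarved libraries lay above every Cys-starved one. No host reached a log2 fold change of 1 in either direction, as 1.2% of all genes did upwards and 0.273% downwards with a call. 2410006H16Rik, at 0.63, came closest.

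Thr-starved and Cys-starved libraries were also compared directly. edgeR called the same directions as against the unstarved libraries: Zfas1, Snhg12, Gas5, Snhg8 and Snhg6 were higher in Thr-starved cells and Snhg5 was lower, beside 30.4% of all genes called higher and 31.6% lower. The differences on the log2 scale were 1.87 (SE 0.047, adjusted p = 3.68e-19) for Zfas1, 1.72 (SE 0.058, adjusted p = 5.68e-17) for Snhg12 and 1.21 (SE 0.042, adjusted p = 1.04e-16) for Gas5. Snhg6, with 0.54 (SE 0.063, adjusted p = 1.23e-07), and Snhg8, with 0.49 (SE 0.056, adjusted p = 7.43e-08), differed more between the starvations than either did from unstarved cells. The difference of Snhg5 was -1.33 (SE 0.062, adjusted p = 2.06e-14). Zfas1, Snhg12 and Gas5 were past 1 on the log2 scale and Snhg5 past -1, as 3.7% and 7.73% of all genes were, and Snhg3 was the only one of the 7 whose libraries overlapped, where 65.8% of all genes had no overlap. For description, 2410006H16Rik differed by 2.49 (SE 0.035) and Snhg1 by 1.99 (SE 0.039).

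**Figure D3:**
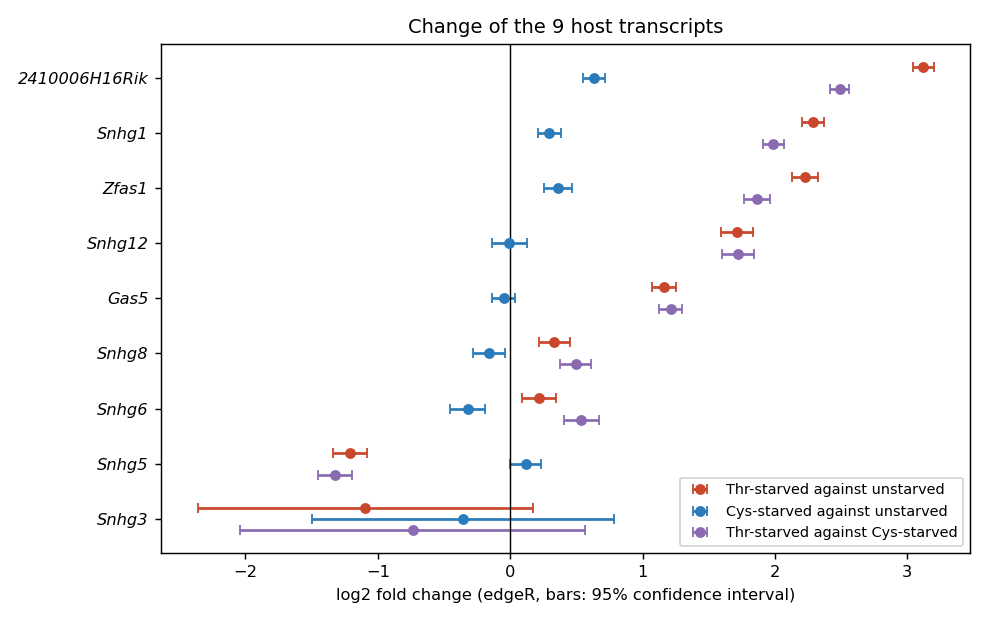
Log2 fold change of each host from edgeR in the 3 comparisons, with bars for the 95% confidence interval. The bars of 2410006H16Rik and Snhg1, which were chosen for their response, are a description and not a test. The red points (Thr-starved against unstarved) range from -1.21 for Snhg5 to 3.12 for 2410006H16Rik, the blue points (Cys-starved against unstarved) lie between -0.36 and 0.63, and the wide bars are those of Snhg3.

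The unstarved library 2 had the lowest level of the 3 unstarved libraries for all 8 hosts above 5 CPM. That library was the lowest for 25.1% of the 11410 genes above 5 CPM. Without it, the log2 fold changes with Thr starvation were 3.07 for 2410006H16Rik, 2.23 for Snhg1, 2.18 for Zfas1, 1.63 for Snhg12, 1.10 for Gas5, 0.29 for Snhg8, 0.17 for Snhg6 and -1.30 for Snhg5. Each of the 6 calls in that comparison was present without it.

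Between genes, levels were compared per kilobase, and the order depended on which length was used. Many hosts have annotated transcripts that retain introns, so the merged exons of Snhg1 span all 2969 bases of the gene while its transcript with the most exons has 605. Per kilobase of merged exons, 2410006H16Rik was the highest in every group, with 55.8 ± 3.80, 86.4 ± 2.07 and 485 ± 3.02 CPM per kb in unstarved, Cys-starved and Thr-starved cells (SD, n = 3). Gas5 (21.8 ± 1.87), Snhg5 (21.2 ± 2.46) and Snhg8 (20.2 ± 1.25 CPM per kb) followed in unstarved cells and did not differ beyond their spread. Per kilobase of the transcript with the most exons, Gas5 led in unstarved cells with 163 ± 14.0 CPM per kb, ahead of Snhg1 with 83.5 ± 6.58 and 2410006H16Rik with 55.8 ± 3.80. On that scale 2410006H16Rik led in Thr-starved cells with 485 ± 3.02, followed by Snhg1 with 406 ± 5.56 and Gas5 with 365 ± 12.5 CPM per kb. Snhg5 went from rank 4 in unstarved cells to rank 8 in Thr-starved cells, just above Snhg3.

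The genes most like the 2 chosen hosts were found by the root mean square difference over the 9 libraries of log2(CPM + 0.5), centred on the unstarved mean, among genes above 5 CPM. For Snhg1 the nearest was Zfas1, with a difference of 0.066, followed by Arrdc4, Rassf1, Ddit3 and Dnah7c with 0.086 to 0.161. Arrdc4 encodes an arrestin-domain protein and Ddit3 encodes CHOP, a transcription factor of the ISR (integrated stress response). For 2410006H16Rik the nearest were Jun, Dll1, Gadd45g, Tent5a and D930016D06Rik, with 0.245 to 0.350. Jun is an immediate early transcription factor, Dll1 a Notch ligand and Gadd45g a growth arrest and DNA damage-inducible gene. Their log2 fold changes with Thr starvation were 2.91, 3.40 and 3.80, and those of Tent5a and D930016D06Rik were 2.84 and 2.52. Changes of this size follow from how the genes were picked. Whether they share more with the hosts than these values was not tested.

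The genes beside the hosts did not all move with them. Slc3a2, which encodes the heavy chain of AA transporters, starts 106 bases from Snhg1 on the opposite strand. It had 350, 359 and 355 CPM in unstarved, 424, 418 and 408 CPM in Cys-starved and 586, 589 and 594 CPM in Thr-starved libraries. Its groups stood in the same order as those of Snhg1, at log2 fold changes of 0.73 (SE 0.021, edgeR adjusted p = 1.95e-18) with Thr and 0.23 (SE 0.021, edgeR adjusted p = 7.17e-09) with Cys starvation. This order was not particular to Slc3a2. Wdr74, the nearest gene on the other side of Snhg1 at 9383 bases, had it as well, with no overlap. Its log2 fold changes were 0.36 (SE 0.025, edgeR adjusted p = 1.82e-11) with Thr and 0.09 (SE 0.025, edgeR adjusted p = 0.00878) with Cys starvation. The increase of Snhg1 with Thr starvation was 2.28 on the same scale.

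Znfx1, a helicase-family gene that overlaps Zfas1 on the opposite strand with 82 shared exonic bases, fell with Thr starvation by 0.76 on the log2 scale (SE 0.061, edgeR adjusted p = 2.34e-10), while Zfas1 rose by 2.22. Zbtb37, which overlaps Gas5 on the opposite strand with no shared exonic base, fell by 0.68 (SE 0.106, edgeR adjusted p = 6.79e-06). Lrrc75a ends 76 bases from 2410006H16Rik on the opposite strand, at a mean of 1.25 CPM in unstarved cells. It rose by 0.88 (SE 0.196, edgeR adjusted p = 0.000474). Zfp949, the next gene beyond the start of Snhg5 at a distance of 25090 bases, rose by 1.11 (SE 0.063, edgeR adjusted p = 4.86e-13) where Snhg5 fell. Syncrip, the nearest gene on the other side of Snhg5 at 38475 bases, rose by 0.35 (SE 0.022, edgeR adjusted p = 1.86e-12). Trnau1ap beside Snhg12 was not called (-0.01, edgeR adjusted p = 0.864). The library kit kept strand, but the strand setting of the counting is not given in the sources used here, and the part of shared bases in the values of overlapping genes was not tested.

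**Figure D4:**
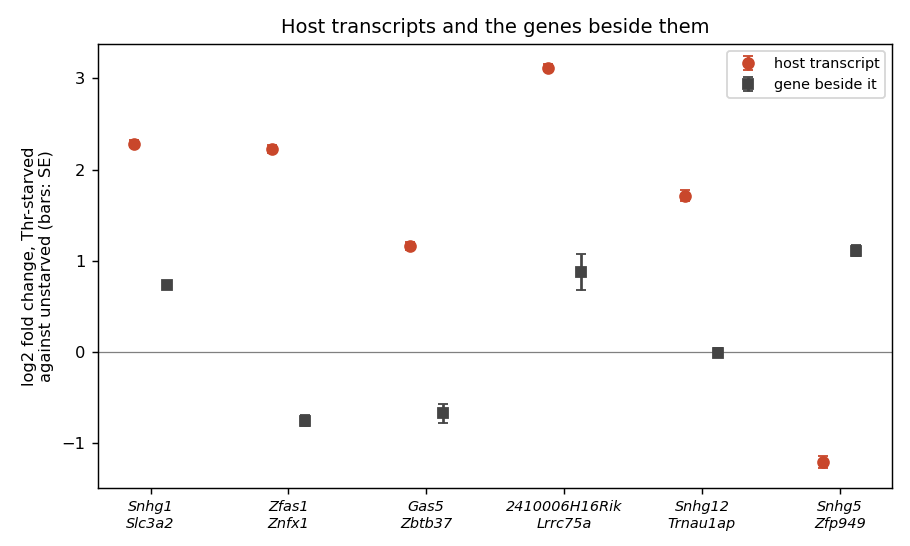
Log2 fold change with Thr starvation (bars: SE) of 6 host transcripts (red circles) and of a gene beside each (grey squares), named below in that order. Slc3a2 (0.73) and Lrrc75a (0.88) lie above 0 like their hosts, and Znfx1 (-0.76) and Zbtb37 (-0.68) lie below it. Zfp949 (1.11), whose gene is 25090 bases from Snhg5, is opposite to Snhg5.

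Of the 35 snoRNA gene models in the hosts, 6 were in the count table and 5 had counts, each below 1 CPM in every library. All models absent from the table overlap an annotated exon of their host on the same strand. Those in the table lie in introns, except Gm23201 of Zfas1. Reads in such overlaps could have been left uncounted or given to the host, which was not tested. Absence from the table therefore does not show absence of the RNA. Mature snoRNAs carry no poly(A) tail, and these libraries were made from poly(A) RNA, so the counts say little about mature snoRNAs. With Thr starvation all 5 had log2 fold changes below 0, so that 0 were higher by edgeR, by DESeq2 or at an unadjusted p below 0.05. edgeR called 2 of the 5 lower, beside 31.9% of all genes. Snord87 of Snhg6 had 27, 20 and 32 counts in unstarved and 11, 4 and 11 in Thr-starved libraries (log2 fold change -1.56, SE 0.412, edgeR adjusted p = 0.00219). Gm23201 of Zfas1 had 40, 28 and 21 counts in unstarved and 4, 9 and 14 in Thr-starved libraries (log2 fold change -1.68, SE 0.454, edgeR adjusted p = 0.00268). It overlaps an annotated exon of Zfas1 on the same strand, and how reads shared with the host were assigned is not known. The 3 snoRNA genes of 2410006H16Rik, whose level was 8.70-fold that of unstarved cells, had log2 fold changes between -0.74 and -0.57 and were not called.

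Other host genes did not move in one direction. Of 26 other noncoding hosts in the table, 19 had a mean of at least 1 CPM. Hosts were classed by their GENCODE gene type alone. That type put Cct6a, a chaperonin subunit gene (-0.54 with Thr starvation), among these 19. It put Snhg11 (-0.82) among the protein-coding hosts. With Thr starvation edgeR called 8 higher and 7 lower (42.1% and 36.8%, beside 31.1% and 31.9% of all genes). Their median log2 fold change was 0.06, against -0.02 over all genes tested and 0.33 over the 7 tested hosts. Snhg15 rose from 21.6, 18.8 and 20.0 CPM to 74.8, 74.6 and 74.0 CPM (log2 fold change 1.88, SE 0.046, edgeR adjusted p = 1.46e-19), and 1810032O08Rik rose by 1.72 (SE 0.067, edgeR adjusted p = 4.99e-16). Dancr fell from 9.84, 7.66 and 10.5 CPM to 2.33, 2.29 and 1.76 CPM (log2 fold change -2.16, SE 0.124, edgeR adjusted p = 6.00e-13), and Rab26os fell by 2.24 (SE 0.172, edgeR adjusted p = 9.42e-11). With Cys starvation 1 of the 19 was called higher and 8 lower, Dancr among the latter at -0.76. These are 5.26% and 42.1%, beside 17.5% and 18.8% of all genes.

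Protein-coding hosts make the larger class, with 222 genes of at least 1 CPM. With Thr starvation 103 were called higher and 82 lower (46.4% and 36.9%, beside 31.1% and 31.9% of all genes), at a median of 0.04. With Cys starvation 42 were higher and 90 lower (18.9% and 40.5%, beside 17.5% and 18.8% of all genes), at a median of -0.06. Alkbh1, which encodes a nucleic acid demethylase, rose with Thr starvation by 1.39 (SE 0.042, edgeR adjusted p = 5.81e-18). Hspa8, a constitutive chaperone gene, fell by 1.27 (SE 0.014, edgeR adjusted p = 4.74e-25). Eif5, a translation initiation factor gene, had a log2 fold change of -1.06 (SE 0.023, edgeR adjusted p = 3.88e-19) with Cys starvation and of -0.06 with Thr starvation. Rcc1, which overlaps Snhg3 and itself holds snoRNA genes, fell by 0.88 with Thr starvation (SE 0.026, edgeR adjusted p = 5.71e-18).

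Ribosomal protein genes, which are known for a 5′ TOP start, were lower more often than higher. Of 86 genes, 13 were called higher and 57 lower with Thr starvation (15.1% and 66.3%, beside 31.1% and 31.9% of all genes). With Cys starvation 0 were called higher and 76 lower (0% and 88.4%, beside 17.5% and 18.8% of all genes). The median log2 fold changes were -0.10 and -0.13. At an unadjusted edgeR p below 0.05 and by DESeq2, 0 were likewise higher with Cys starvation. Of 15 other genes with 5′ TOP mRNAs, such as Eef1a1 and Tpt1, 5 were higher and 8 lower with Thr starvation (33.3% and 53.3%). With Cys starvation 1 of these 15 was higher and 12 were lower (6.67% and 80%).

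The proteins that bind snoRNAs were also encoded by genes that moved in different directions. In the box C/D core, Nop56 (0.45), Nop58 (0.42) and Snu13 (0.10) were called higher with Thr starvation, while Fbl, the gene of the methyltransferase fibrillarin, fell by 0.51 (SE 0.021, edgeR adjusted p = 1.93e-15). Of the 4 genes of the box H/ACA core, 2 were called higher and 2 lower, and of 9 snoRNP assembly genes 3 were higher and 3 lower. Over all genes tested, the shares with Thr starvation were 31.1% higher and 31.9% lower. With Cys starvation the box C/D core had 1 gene higher (Nop56, 0.21) and 3 lower, beside 17.5% and 18.8% of all genes.

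Genes of NMD factors were mostly higher. Of 14, edgeR called 11 higher and 3 lower with Thr starvation (78.6% and 21.4%, beside 31.1% and 31.9% of all genes). With Cys starvation 8 were higher and 5 lower (57.1% and 35.7%, beside 17.5% and 18.8% of all genes). The median log2 fold changes were 0.49 and 0.16. The gene of the central helicase, Upf1, rose by 0.53 (SE 0.021, edgeR adjusted p = 5.31e-16) with Thr starvation. Smg9 and Smg5 had the largest increases, 0.86 and 0.71, and Smg8 fell by 0.34 (SE 0.037, edgeR adjusted p = 2.84e-08). mRNA levels of these factors do not measure NMD itself, and their part in the host levels was not tested.

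**Figure D5:**
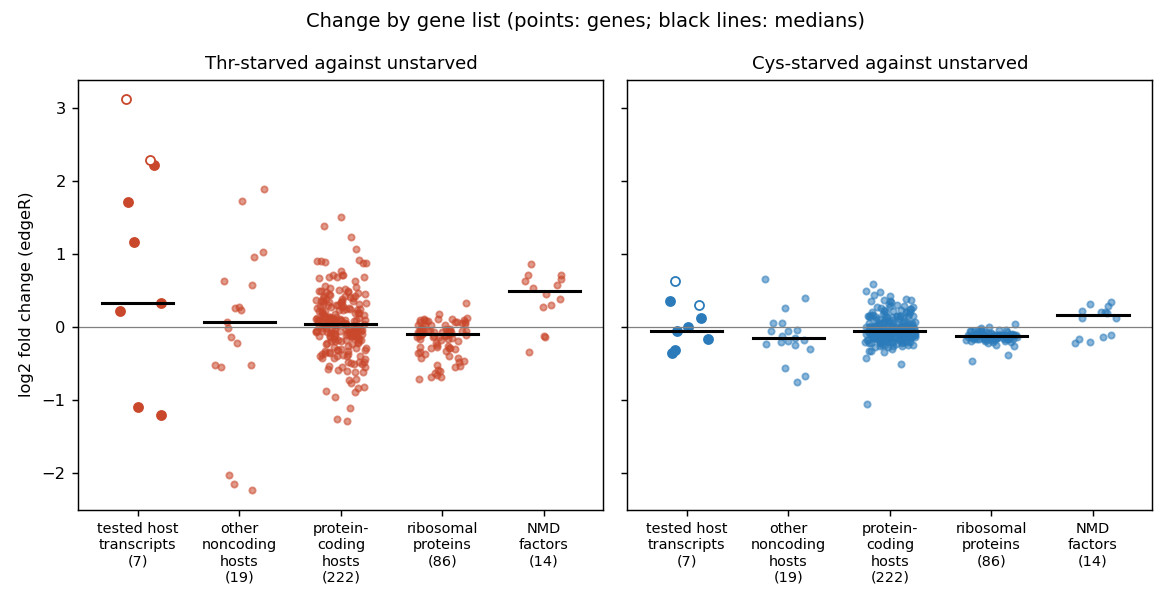
Log2 fold change of each gene (points) in 5 lists, with black lines at the medians, for Thr-starved (left) and Cys-starved (right) against unstarved libraries. The number of genes stands in parentheses, and 30 ribosomal protein genes that are hosts appear in both lists. Open circles are 2410006H16Rik and Snhg1, chosen for their response and left out of the median. The 7 tested hosts have a median of 0.33 on the left, within the range of the other lists (-0.10 to 0.49), and their points run from -1.21 to 2.22.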

How the data were processed

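The authors mapped paired reads to GRCm38 with STAR 2.7.4a and counted them per gene with HTSeq, per the labels and the study's methods, and deposited the counts without normalization. The deposited signal table holds the same counts divided by 1 size factor per library. The strand and overlap settings of HTSeq are not given in the sources used here.

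Symbols came from GENCODE M21 (20171 of 20189 genes). In R 4.3.3, edgeR 4.0.16 (TMM, quasi-likelihood F test) was fitted to all genes with at least 1 count over 9 libraries, with Benjamini-Hochberg adjustment over 20143 genes at 0.05. The common coefficient of variation was 3.53%. The fit was tested on simulated data. Of counts from 1 to 20, 67.8% were even, and counts were used as deposited. Between replicates of a group, genes with low counts had a mean chi-square of 1.98 to 2.13 per gene, above the level for independent counts. Low counts, such as those of Snhg3 and the snoRNA genes, may therefore rest on fewer independent reads than the numbers show. The reason was not tested. 

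The members and lists were chosen with earlier results of these data known. All 9 hosts were named, and from each other list genes fixed by name, the 2 called genes with the largest change in each direction, the neighbours of the hosts, and the 5 genes most like Snhg1 and 2410006H16Rik. The sequence motifs were chosen after the sequences were seen. AC121821.1 and other genes allowed by this rule were left out for length. Alternatives were DESeq2 1.42.0, RLE normalization, the deposited size factors, filterByExpr, fits of 2 groups, a replicate block, a log2 fold change of at least 1 and each fit without 1 library. Sequences were read with Python 3.11.15.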

Additional observations from a re-analysis of the deposited data

How the results depend on the processing

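The 27 log2 fold changes of the hosts were recomputed under up to 15 alternatives, 401 values in all. Of these, 390 kept their direction and their side of the threshold (for the 2 hosts without a test, they moved by less than 1 SD), and 21 of the 27 results did so under every alternative run. In the Thr-starved against unstarved comparison, no host changed its call or direction under DESeq2, RLE normalization, the deposited size factors, filterByExpr, a fit of 2 groups, the replicate block or the loss of any library. filterByExpr dropped Snhg3, and DESeq2 gave its Cys change no adjusted p.

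With a log2 fold change of at least 1 required, hosts called higher numbered 3 with Thr starvation and 3 between the starvations, and with Cys starvation 0 were higher and 0 lower. Without 1 library at a time, 1 to 2 hosts were higher and 1 to 3 lower with Cys starvation, the 3 without unstarved library 2. Values that changed sign were all near 0 and not called: Snhg12 with Cys starvation became 0.041, 0.039 and 0.046 without unstarved library 1, unstarved library 3 and Cys-starved library 2, and Snhg3 became 0.050 without Cys-starved library 2. Over the losses of 1 library, Snhg12 ranged from -0.10 to 0.046 and Snhg3 from -0.75 to 0.050. With the deposited size factors, 36.8% of the genes called with Cys starvation were higher, against 48.2% with TMM, and 2410006H16Rik differed between the starvations by 2.53 in place of 2.49.

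Same-numbered libraries did not deviate together (correlations of deviations from -0.244 to 0.106 over 11410 genes). Low correlations cannot exclude a shared day or culture, which the labels do not state, so whether the numbers pair the libraries is not known. With the replicate block, 5 hosts were called higher and 1 lower with Thr starvation, 1 and 2 with Cys starvation, and 5 and 1 between the starvations, as without it. Low counts limit the comparisons of Snhg3 and the snoRNA genes, which had at most 13 and 48 counts in a library. Why these counts were low was not tested.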
